A study of Mus musculus with 6 samples.

Results

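The genes described here encode the subunits of the translation initiation factors, the proteins that bring a ribosome, an initiator tRNA and an mRNA together at the start codon. They were chosen by name, as the rows of the count table whose symbol begins with Eif1 to Eif6. The rule itself used no difference between genotypes, but it was set with earlier results of these data known. The name matched 68 rows, from which 10 pseudogenes and 6 genes left out by name (Eif4e, Eif4ebp1, Eif4ebp2, Eif4a3, Eif2s3x and Eif2s3y) were removed. Of the 52 candidates that were left, 47 had a mean of 10 or more counts, out of 55367 rows in all. Just inside the minimum lay Eif4ebp3, with 12 counts in each WT library and 16, 17 and 16 in the Fmr1-KO libraries. Just outside it lay Eif3j2, with a mean of 3.67 counts. The others left out were Eif4a3l2, Eif4e1b, Eif4a3l1 and Eif2c5, with means of 1.33, 0.333, 0.167 and 0 counts.

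RNA-seq of polyA RNA was carried out on cells from the cerebral cortex of C57BL/6J mouse pups at postnatal day 1 (P1), kept for 2 days in vitro, with 3 libraries from wild-type (WT) and 3 from Fmr1-KO pups. Strain, age, tissue and culture medium were the same in both groups, which differed by the knockout of Fmr1, the gene that encodes FMRP, the RNA-binding protein absent in fragile X syndrome. According to the study's methods, ACSA2+ astrocytes and myelin were depleted before plating, and no positive sort for neurons is described. Neither the sex of the pups nor whether replicates came from separate litters was given, so P values measure the spread between these libraries.

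Libraries held 30348556 to 35126207 counts, the highest 1.16 times the lowest, and 16976 genes were tested, all 47 initiation factor genes among them. Fmr1 was checked first, with 4113, 3710 and 3656 counts in WT and 1761, 1879 and 1972 in Fmr1-KO, a log2 fold-change of -0.98 (SE 0.04, edgeR adjusted P = 2.25e-13). No marker of the cell type lists used here was at 0 in all libraries. Levels are given in CPM, which are counts scaled to the library total times edgeR's TMM factor. That factor was about 0.99 in WT and 1.01 in Fmr1-KO. Of 12 neuronal markers, 11 fell and 1 rose in Fmr1-KO. Their summed level was 5060 to 5180 CPM in WT and 4160 to 4370 CPM in Fmr1-KO. All 12 markers of proliferating cells were higher (654 to 698 CPM in WT, 1130 to 1180 CPM in Fmr1-KO), as were 5 of 9 of neural progenitors (2380 to 2400 CPM against 2690 to 2770 CPM). All 8 of the oligodendrocyte lineage were lower (1820 to 1990 CPM against 1030 to 1110 CPM), as were 6 of 8 of microglia (174 to 192 CPM against 106 to 116 CPM). Of 8 astrocyte markers, 4 were lower and 2 higher (4870 to 5010 CPM against 4260 to 4640 CPM). Of 7 endothelial and mural markers tested, 2 were lower and 4 higher (247 to 272 CPM against 411 to 430 CPM), and both erythroid markers tested were lower (1.9 to 2.46 CPM against 1.11 to 1.52 CPM). The part of these marker differences in the results below was not tested. In such bulk samples, fewer cells of a type and less RNA per cell cannot be told apart.

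Initiation is the step at which most control of protein synthesis is exerted. eIF2 carries the initiator tRNA as a GTP complex, eIF1 and eIF1A keep the small ribosomal subunit open for scanning, and eIF3 is the large scaffold that holds these factors on it. The eIF4 group recognises and unwinds the capped end of the mRNA, and eIF5 and eIF5B complete the process by releasing eIF2 and joining the large subunit. eIF2B recharges eIF2, and 4 kinases that phosphorylate eIF2alpha turn that recharging down under stress. FMRP is known as a regulator of translation, and these genes encode the machinery that it works beside.

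The bases around the start codon show a feature of the mRNAs that the choice of members did not use. A purine 3 bases before the start codon and a G just after it make a context that scanning ribosomes recognise well, and eIF1 is the factor that rejects poor contexts. The following contexts, from the transcripts of GENCODE M21 on GRCm38, cover 12 bases before and 9 after the start codon, which is in capitals. Eif1, its paralog Eif1b and Eif3b are shown because they lacked both features, Eif2ak3 because it lacked the purine and was the member called higher with the largest difference, Eif4g3 because its difference was the largest of those called, and Eif4g2 because it was the one member whose annotated start codon was not ATG.
Eif1: gaatcgtatcgtATGtccgctatc
Eif1b: cactagtgtcgcATGtccactatc
Eif3b: cagcgcgggcccATGcaggacgct
Eif2ak3: ggcgggccgctgATGgagcgcgcc
Eif4g3: gcccctcagacaATGaactcacaa
Eif4g2: caagccgccaaaGTGgagagtgcg
Of the 47 members, 46 began with ATG. The purine was present in 41, or 87.2%, against 84.5% of 20295 protein-coding genes. A G after the start codon was present in 48.9%, against 49.6%. Both features were present in 42.6%, against 41.5%, and both were missing in 6.38%, against 7.39%, so the members as a group lay within a few percent of all genes in each of these shares.

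Initiation factor mRNAs differed little between the genotypes. By edgeR's quasi-likelihood test at an adjusted P under 0.05, 12 of the 47 fell in Fmr1-KO relative to WT, 2 rose and 33 were not called. The lower ones made up 25.5% of the members, where 21.9% of all tested genes were called lower. The higher ones made up 4.26%, where 20.7% of all tested genes were called higher. In either direction 29.8% of the members were called, against 42.6% of all tested genes. The 3 Fmr1-KO libraries were all under the 3 WT libraries for 18 members (38.3%), against 26.3% of all tested genes, and all over them for 5 (10.6%), against 25.4%.

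The sizes were small. The median log2 fold-change of the members was -0.04, and 35 of 47 (74.5%) were below 0, against a median of 0.01 and 48.7% below 0 for all tested genes. With library totals alone as the scaling, 29 of 47 were below 0 and the median was -0.0152, where the median of all tested genes was 0.0338. The middle quartiles of the members ran from -0.0975 to 0.0032, a narrower span than the -0.1449 to 0.162 of all tested genes. Their median absolute log2 fold-change was 0.062, against 0.1538. One member, Eif4ebp3, differed by over 1.2-fold (2.13%), and it was not called, whereas 32.1% of all tested genes differed by that much. Where the mean reached 5 CPM, 0 of 46 members and 23.4% of 12145 genes did. When the test itself required a difference of over 1.2-fold (edgeR's glmTreat), 0 members were called, with 0 at an unadjusted P under 0.05, against 13.1% of all tested genes.

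The WT libraries had member medians of -0.0105, -0.0092 and 0.0134 on the log2 scale, relative to the WT mean of each gene. The Fmr1-KO libraries had medians of -0.0519, -0.0505 and -0.046, all below the WT libraries. Summed over the members, the level was 9900 to 9980 CPM in WT and 9630 to 9660 CPM in Fmr1-KO. As a share of all counts, which leaves out the TMM factor, the members made up 0.984% in WT and 0.973% in Fmr1-KO.

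**Figure D1:**
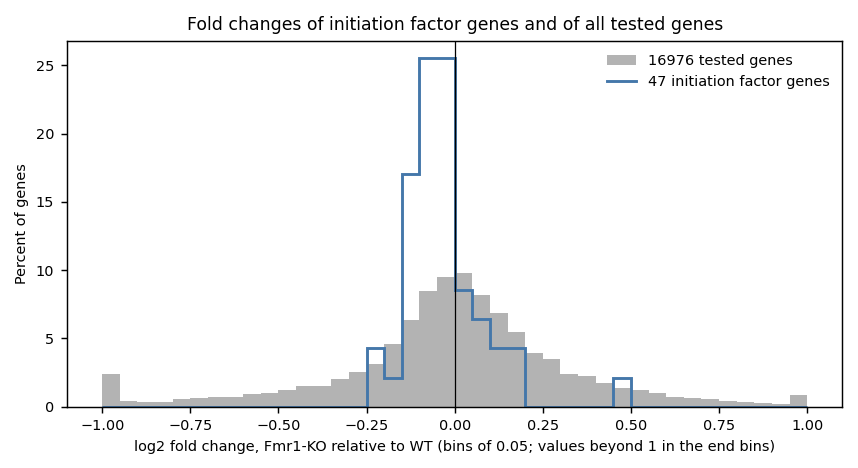
Distribution of log2 fold-changes, Fmr1-KO relative to WT, as the percent of genes in bins of 0.05, for the 47 initiation factor genes (line) and the 16976 tested genes (grey), with values beyond 1 in the end bins. The members form a narrow peak just below 0 (median -0.04), while the tested genes spread to both sides of 0.

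**Figure D2:**
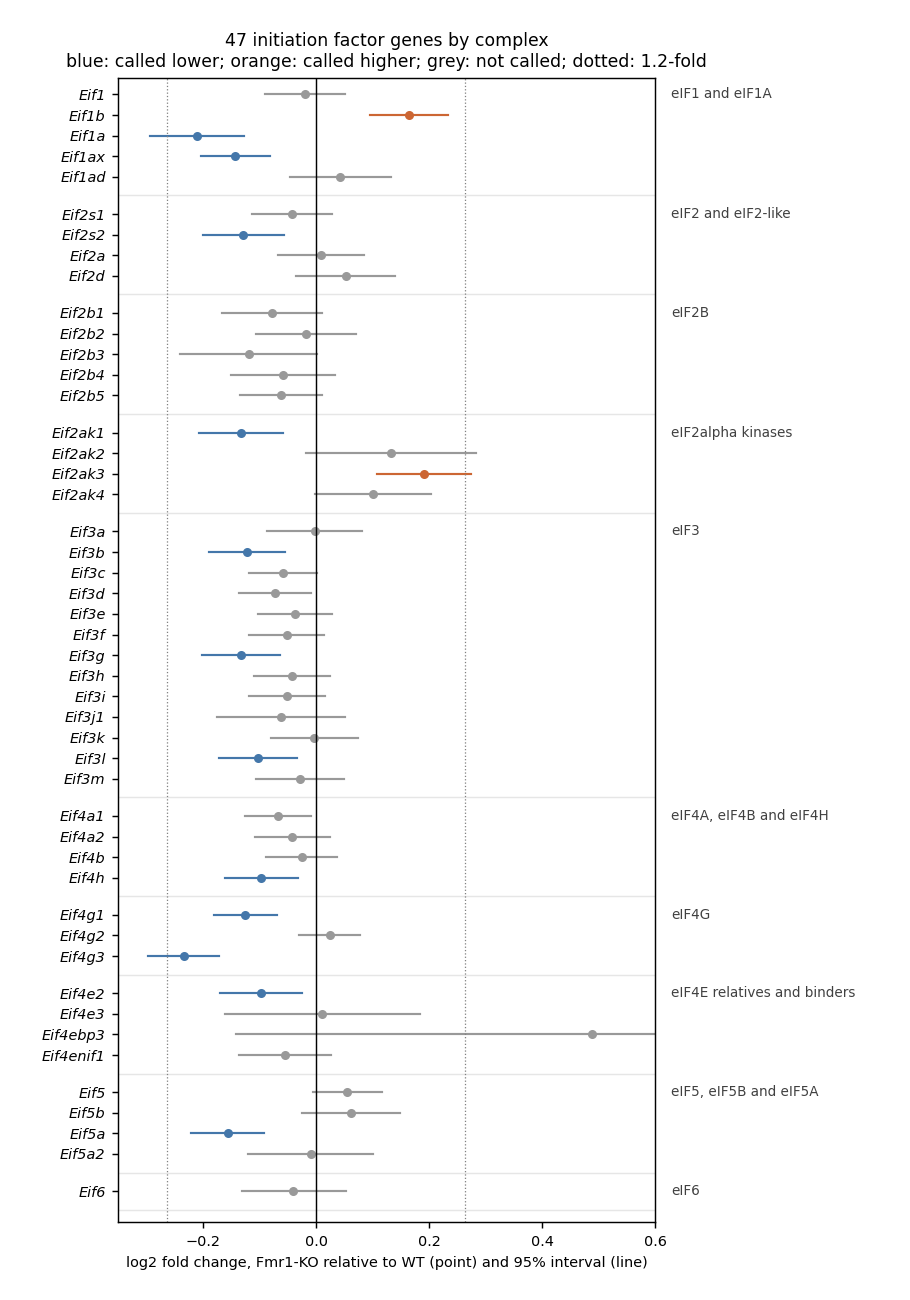
Log2 fold-change of each initiation factor gene, Fmr1-KO relative to WT, by complex, with points for the edgeR estimate and lines for its 95% interval. Of the 47 genes, 12 were called lower (blue) and 2 higher (orange), all with their points within the dotted lines at 1.2-fold. Among these called genes, the intervals of Eif4g3, Eif1a and Eif2ak3 cross a dotted line. The interval of Eif4ebp3, which was not called, runs past the axis to 1.12.

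Levels were compared between genes per kilobase of exon, since a longer mRNA yields more reads. The length was that of all annotated exons of a gene merged, which can exceed the length of the mRNA present. Genes with many annotated isoforms may therefore appear too low, and the order of genes is approximate. In WT the highest was Eif4g2, at 208 ± 1.55 CPM per kilobase (SD, n = 3), followed by Eif5a at 159 ± 2.73, Eif1b at 155 ± 5.61 and Eif4a1 at 147 ± 2.58. Eif5a and Eif1b were not apart by more than their SD. The median member stood at 30.3 CPM per kilobase. By this measure, subunits of 1 complex were not at 1 level. The 13 eIF3 genes ran from 5.48 for Eif3j1 to 108 for Eif3h, with merged exon lengths of 5830 and 1612 bases. The 5 eIF2B genes ran from 3.65 for Eif2b3 to 35.2 for Eif2b5. The kinases were low, from 4.7 for Eif2ak4 to 19.8 for Eif2ak1, and Eif4ebp3, a repressor that binds eIF4E, was the lowest of all at 0.478.

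**Figure D3:**
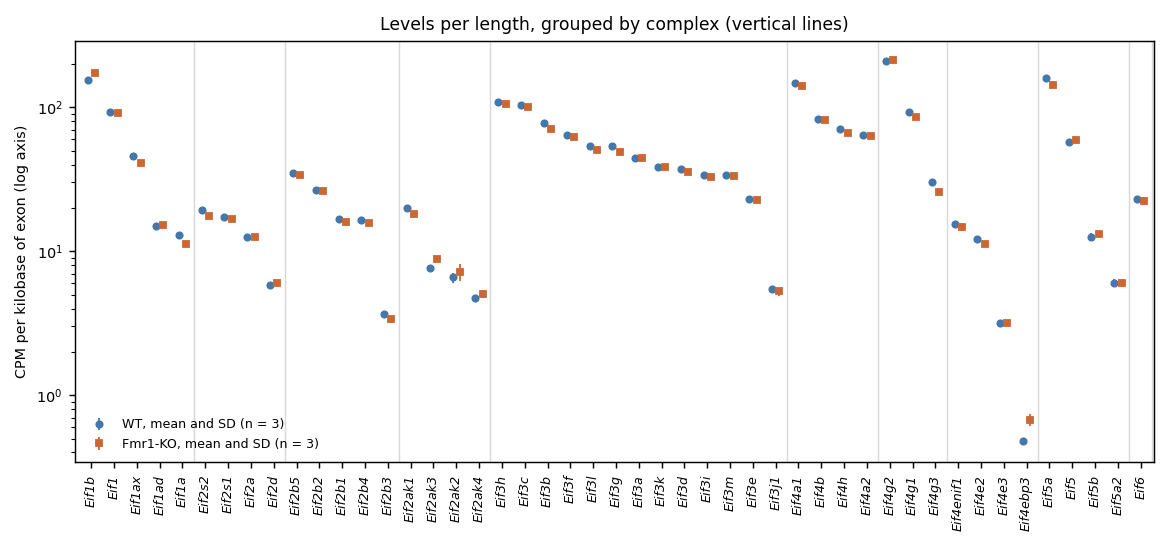
Level of each initiation factor gene in CPM per kilobase of exon on a log axis, as mean and SD of 3 libraries per genotype, with vertical lines between complexes. The order of the genes spans Eif4ebp3 at 0.478 to Eif4g2 at 208 in WT, and the genotypes lie close together compared with the range between genes.

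eIF4G is the scaffold that joins the cap-binding protein eIF4E, the helicase eIF4A and the poly(A)-binding protein. Of its 3 genes, 2 were called lower in Fmr1-KO, where 21.9% of all tested genes were called lower. Eif4g3, which encodes a close relative of the main eIF4G protein (chromosome 4, 137993022 to 138208508, plus strand, GRCm38), had 11537, 11019 and 11316 counts in WT and 8942, 8899 and 10028 in Fmr1-KO. Its level was 335 ± 3.80 CPM in WT and 285 ± 8.44 CPM in Fmr1-KO (SD, n = 3 each), with no overlap between genotypes. The log2 fold-change was -0.23 (SE 0.03, edgeR adjusted P = 1.75e-06), a decrease of 15.0% and the largest among the called members. Eif4g1, the main eIF4G gene (chromosome 16, 20668313 to 20692884), had 23740, 22464 and 22549 counts in WT and 20075, 19132 and 21790 in Fmr1-KO. It was at 679 ± 3.66 CPM in WT and 623 ± 4.81 CPM in Fmr1-KO, again without overlap, and its log2 fold-change was -0.13 (SE 0.03, edgeR adjusted P = 0.000683). Eif4g2 encodes a relative that lacks the eIF4E-binding part and supports cap-independent initiation. It had 69707 to 74224 counts in WT and 65676 to 75356 in Fmr1-KO, or 2120 ± 15.8 against 2150 ± 11.3 CPM. All its Fmr1-KO libraries were above the WT libraries once scaled, yet it was not called, and its log2 fold-change of 0.02 had a 95% interval from -0.0301 to 0.0781. The median over the 3 genes was -0.13.

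The promoter of Eif4g1, taken as the 250 bases before the start in RefSeq (GRCm38.p6, chr16:20672477-20672726, plus strand), lies inside the gene as GENCODE M21 draws it, before a start used by some of its transcripts. It is printed because it holds a CACGTG, the letters known as an E-box, in capitals, beginning 54 bases before the start.
Eif4g1 promoter: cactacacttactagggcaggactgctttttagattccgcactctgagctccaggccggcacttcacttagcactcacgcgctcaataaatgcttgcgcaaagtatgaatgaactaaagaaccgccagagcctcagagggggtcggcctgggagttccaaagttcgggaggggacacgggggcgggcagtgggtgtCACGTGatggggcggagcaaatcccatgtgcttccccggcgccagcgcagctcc
CACGTG, which reads the same on both strands, was searched for in windows from 250 bases before to 50 after the start. It was present for 9 of the 38 member genes with a promoter (23.7%), against 11.2% of 12353 tested genes and 7.15% of 32851 promoters. The 9 were Eif1b, Eif3a, Eif3f, Eif3k, Eif4a1, Eif4g1, Eif4h, Eif5a and Eif5a2. Of these 4 were called, where 42.6% of all tested genes were called in either direction. These are matches of letters, and no binding was measured. The median GC content was 62.5% for the members' promoters and 60.3% for those of tested genes. AAGATGGC, searched on both strands, was present for 5.26% of the member genes and 4.62% of tested genes, and in 2.75% of all promoters.

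eIF1 and eIF1A keep the scanning ribosome open, and their genes went in both directions. Eif1b, a close paralog of Eif1 (chromosome 9, 120492232 to 120495330), had 6036, 5558 and 6030 counts in WT and 6298, 5882 and 6947 in Fmr1-KO. Once scaled, all 3 Fmr1-KO libraries were above all 3 WT libraries, at 174 ± 6.31 CPM in WT and 195 ± 3.98 CPM in Fmr1-KO (SD, n = 3 each). The log2 fold-change was 0.16 (SE 0.03, edgeR adjusted P = 0.000348), an increase of 12.1%. Eif1b was the only one of the 3 called genes of its complex to be higher. An antisense gene starts over the same bases as Eif1b, and counting used the strand. Eif1 itself had 6596, 6248 and 6690 counts in WT and 6291, 5602 and 6783 in Fmr1-KO. It was at 193 ± 6.42 and 190 ± 6.52 CPM, and its log2 fold-change of -0.02 (95% interval -0.0899 to 0.0515) was not called. Stretches of 100 bases, the length of a read, that also occur in other genes made up 11.2% of Eif1 and none of Eif1b.

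Both eIF1A genes were lower. Eif1a had 1839, 1829 and 1786 counts in WT and 1503, 1461 and 1595 in Fmr1-KO, or 53.9 ± 1.25 against 46.6 ± 0.996 CPM, a log2 fold-change of -0.21 (SE 0.04, edgeR adjusted P = 0.000203). Its paralog Eif1ax, the only member on chromosome X (159372178 to 159389928), had 8488, 7874 and 7878 counts in WT and 6999, 6684 and 7556 in Fmr1-KO. It was at 239 ± 4.23 CPM in WT and 217 ± 1.57 CPM in Fmr1-KO, with a log2 fold-change of -0.14 (SE 0.03, edgeR adjusted P = 0.000443). The genotypes did not overlap for either gene. Xist, the RNA of the inactive X, was at 306 CPM in WT and 916 CPM in Fmr1-KO, and its part in the value of Eif1ax was not tested. Eif1ad, which encodes a protein with an eIF1A domain, had a log2 fold-change of 0.04 and was not called.

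eIF2 is the GTPase that delivers the initiator tRNA. Of its 2 subunit genes among the members, Eif2s2, for the beta subunit, was lower, with 4336 to 4387 counts in WT and 3692 to 3957 in Fmr1-KO and a log2 fold-change of -0.13 (SE 0.03, edgeR adjusted P = 0.00434). Of its 100-base windows, which are stretches as long as a read, 6.53% also occur in another gene. Reads from these windows cannot be placed with certainty, so its count is slightly uncertain. Eif2s1, for the alpha subunit that the kinases phosphorylate, was at 85.8 ± 1.51 CPM in WT and 83.2 ± 0.995 CPM in Fmr1-KO (SD, n = 3 each). The genotypes did not overlap, but its log2 fold-change of -0.04 was not called (edgeR adjusted P = 0.334). Eif2a and Eif2d encode proteins that can deliver a tRNA without eIF2, and had log2 fold-changes of 0.01 and 0.05, neither called. The gamma subunit is encoded by Eif2s3x and Eif2s3y, which were left out by name.

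eIF2B exchanges GDP for GTP on eIF2 and is the target of the integrated stress response. None of its 5 genes was called by edgeR, and 0 were under an unadjusted P of 0.05 or called by DESeq2. Of all tested genes, 42.6% were called by edgeR and 35.7% by DESeq2. The log2 fold-changes were -0.08 for Eif2b1, -0.02 for Eif2b2, -0.12 for Eif2b3, -0.06 for Eif2b4 and -0.06 for Eif2b5, the catalytic subunit. All 5 were below 0, although with library totals alone Eif2b2 was at 0.0093. The median was -0.06, and the library medians of the complex ran from -0.0341 to 0.038 in WT and from -0.0834 to -0.0457 in Fmr1-KO.

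The eIF2alpha kinases had the highest median log2 fold-change of the complexes (0.12). Of the 4, 1 was called in each direction, where 21.9% of all tested genes were called lower and 20.7% higher. Without Fmr1-KO replicate 2 that median was 0.0368, and 0.0753 if WT replicate 2 was left out, so its size rested on single libraries. Eif2ak3 encodes PERK, the kinase that senses unfolded proteins in the endoplasmic reticulum (chromosome 6, 70844515 to 70905245, plus strand). It had 1592, 1578 and 1517 counts in WT and 1721, 1624 and 1833 in Fmr1-KO. Its level was 46.3 ± 1.22 CPM in WT and 52.9 ± 0.186 CPM in Fmr1-KO (SD, n = 3 each), with all Fmr1-KO libraries above the WT libraries. The log2 fold-change was 0.19 (SE 0.04, edgeR adjusted P = 0.000503), an increase of 14.2% and the larger of the 2 increases called. Eif2ak1 encodes HRI, the kinase known for sensing heme. It had 3954, 3557 and 3826 counts in WT and 3418, 3029 and 3560 in Fmr1-KO, or 112 ± 3.85 against 102 ± 3.09 CPM, without overlap. Its log2 fold-change was -0.13 (SE 0.04, edgeR adjusted P = 0.00497). Eif2ak2, which encodes PKR, the sensor of double-stranded RNA, was at 35.8, 30.7 and 34.3 CPM in WT and 33.4, 42.7 and 34.7 CPM in Fmr1-KO, where replicate 2 stood above the rest and the other libraries overlapped with WT. Its log2 fold-change of 0.13 was not called. It was 0.0186 without Fmr1-KO replicate 2 (edgeR adjusted P = 0.842), 0.0707 without WT replicate 2 (adjusted P = 0.48) and 0.1988 without Fmr1-KO replicate 1, which was called (adjusted P = 0.0436). Eif2ak4, which encodes GCN2, the sensor of amino acid shortage, had a log2 fold-change of 0.10 and was not called (edgeR adjusted P = 0.108). It was 0.055 without Fmr1-KO replicate 2 (adjusted P = 0.422) and was called with library totals alone (0.1291, adjusted P = 0.0397).

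The 250 bases before the start of Eif2ak3 (RefSeq, GRCm38.p6, chr6:70844265-70844514, plus strand) are printed because this member had the larger increase and because its promoter held 6 copies of CCAAT, in capitals, counting both strands.
Eif2ak3 promoter: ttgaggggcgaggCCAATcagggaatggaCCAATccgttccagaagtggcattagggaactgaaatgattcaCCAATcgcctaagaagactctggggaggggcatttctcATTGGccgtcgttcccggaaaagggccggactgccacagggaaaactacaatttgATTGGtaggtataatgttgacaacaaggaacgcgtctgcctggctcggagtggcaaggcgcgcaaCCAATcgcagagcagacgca
ATTGG is the same motif on the other strand. At least 1 copy was present for 36.8% of the member genes with a promoter, against 42.6% of tested genes and 37.4% of all promoters.

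eIF3, the largest of the factors, was represented by 13 genes, of which 10 were not called by edgeR. Of the 13, 3 were lower (23.1%), near the 21.9% of all tested genes, and 0 were higher, against 20.7%. All 13 log2 fold-changes were below 0, from -0.13 to -0.0027, but Eif3a and Eif3k were above 0 with library totals alone and with upper-quartile scaling, where 11 of 13 were below 0. The median was -0.05. It was -0.0122, 0.0009 and 0.009 in the WT libraries and -0.0411, -0.0802 and -0.0578 in the Fmr1-KO libraries, so these did not overlap. Eif3g, for a subunit with an RNA-binding domain (chromosome 9, 20894349 to 20898623), had 3714, 3521 and 3581 counts in WT and 3221, 2903 and 3425 in Fmr1-KO. Its level was 107 ± 0.406 CPM in WT and 97.4 ± 2.28 CPM in Fmr1-KO (SD, n = 3 each), a log2 fold-change of -0.13 (SE 0.03, edgeR adjusted P = 0.00257). Eif3b, for a core scaffold subunit that binds Eif3g's product, had a log2 fold-change of -0.12 (SE 0.03, edgeR adjusted P = 0.00415), and Eif3l one of -0.10 (SE 0.03, edgeR adjusted P = 0.0169). Eif3l lost its call without WT replicate 1 (-0.1025, adjusted P = 0.0509), WT replicate 3 (-0.0839, adjusted P = 0.088) or Fmr1-KO replicate 2 (-0.0791, adjusted P = 0.0675), and with library totals alone (adjusted P = 0.0785).

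The other eIF3 subunits included the scaffold pair Eif3a and Eif3c, with log2 fold-changes of -0.0027 and -0.06. Eif3d, whose protein can itself bind the cap of some mRNAs, lay just outside the threshold at -0.07 (edgeR adjusted P = 0.0613). Eif3e, Eif3f, Eif3h, Eif3i, Eif3k and Eif3m ran from -0.0521 to -0.0035. Eif3j1, which encodes a loosely bound subunit, was at -0.06, but 33.4% of its 100-base windows also occur in its near copy Eif3j2, so its count is uncertain. The same applies to a lesser degree to Eif3h (8.76%) and Eif3m (4.44%).

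eIF4A is the helicase that unwinds the leader of the mRNA, with eIF4B and eIF4H as its helpers. Eif4a1 had 21866, 20950 and 21704 counts in WT and 19773, 18409 and 21462 in Fmr1-KO, or 638 ± 11.2 against 609 ± 7.77 CPM (SD, n = 3 each). Its log2 fold-change of -0.07 lay just outside the threshold (edgeR adjusted P = 0.0588) and inside it with DESeq2 (adjusted P = 0.0491), and 22.6% of its 100-base windows also occur in other genes, pseudogenes among them. Eif4a2, its paralog, had 11840, 11861 and 11162 counts in WT and 10662, 10527 and 11573 in Fmr1-KO, a log2 fold-change of -0.04 that was not called. Eif4h was lower, at 394 ± 10.1 CPM in WT and 369 ± 11.3 CPM in Fmr1-KO, with a log2 fold-change of -0.10 (SE 0.03, edgeR adjusted P = 0.0152). That call was lost without WT replicate 3 (-0.079, adjusted P = 0.0885) or Fmr1-KO replicate 2 (-0.0726, adjusted P = 0.0601), and with library totals alone (adjusted P = 0.0781). Eif4b was at -0.03 and was not called. The median of the 4 genes was -0.05.

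The relatives and binders of eIF4E came next. Eif4e2 encodes 4EHP, which binds the cap without eIF4G and so acts as a repressor. It had 3074, 3087 and 3042 counts in WT and 2808, 2574 and 2945 in Fmr1-KO, or 91.0 ± 2.47 against 85.0 ± 1.18 CPM (SD, n = 3 each). Its log2 fold-change was -0.10 (SE 0.03, edgeR adjusted P = 0.0289), and the call was lost with DESeq2 (adjusted P = 0.0538), upper-quartile scaling (adjusted P = 0.0507) and library totals alone (adjusted P = 0.115). It was also lost without WT replicate 2 (-0.0795, adjusted P = 0.106) or WT replicate 3 (-0.0968, adjusted P = 0.0675), and without Fmr1-KO replicate 2 (-0.0901, adjusted P = 0.0647) or Fmr1-KO replicate 3 (-0.0949, adjusted P = 0.0752). Eif4e3, another cap-binding relative, had 283, 248 and 274 counts in WT and 257, 240 and 288 in Fmr1-KO. Its log2 fold-change of 0.01 was not called, and its 95% interval ran from -0.162 to 0.184, so differences within that span remain possible. Eif4ebp3 had the largest log2 fold-change of all members, 0.49, from 12 to 17 counts per library, with an interval from -0.141 to 1.12 (edgeR adjusted P = 0.206), and 62.8% of its 100-base windows also occur in another gene. Eif4enif1, which encodes the protein that carries eIF4E into the nucleus, was at -0.06 and was not called.

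Among the late-acting factors, Eif5a was lower. Its product carries hypusine, a modified lysine, and is now known mainly for helping elongation and termination. On chromosome 11, from 69916714 to 69921958, it had 13257, 12211 and 12665 counts in WT and 11253, 9948 and 11928 in Fmr1-KO. Its level was 377 ± 6.50 CPM in WT and 338 ± 11.4 CPM in Fmr1-KO (SD, n = 3 each), with no overlap, and the log2 fold-change was -0.16 (SE 0.03, edgeR adjusted P = 0.000287), a decrease of 10.3%. Its paralog Eif5a2 had 1122, 970 and 967 counts in WT and 951, 950 and 1036 in Fmr1-KO, a log2 fold-change of -0.0098 with a 95% interval from -0.12 to 0.101. Eif5, which makes eIF2 hydrolyse its GTP, and Eif5b, which joins the large subunit, had log2 fold-changes of 0.06 and 0.06, neither called, although Eif5 was with library totals alone (0.083, adjusted P = 0.0257). Eif6, which keeps free large subunits from joining too early, was at -0.04 and was not called.

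**Figure D4:**
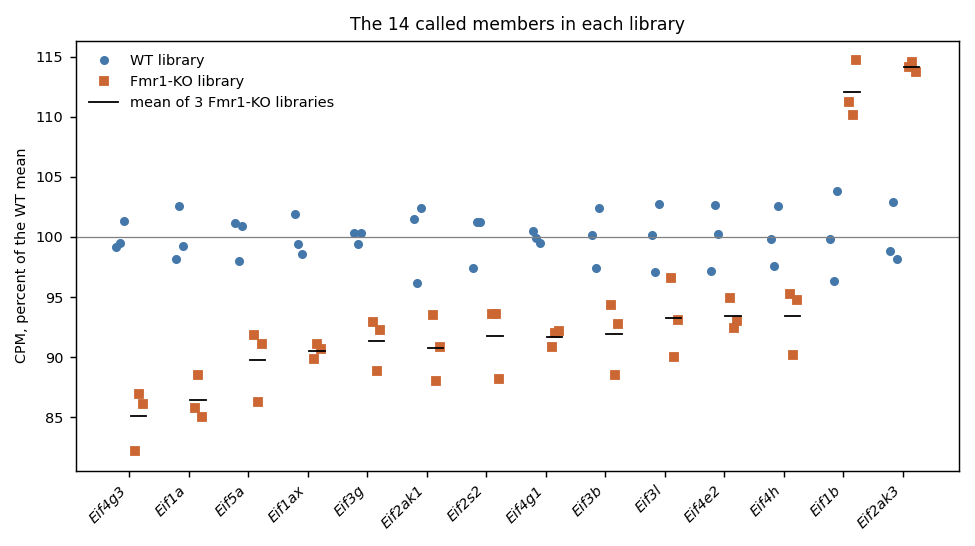
CPM of the 14 called members in each library, as a percent of the gene's WT mean, with WT libraries as circles, Fmr1-KO libraries as squares and lines for the mean of the 3 Fmr1-KO libraries. Eif4g3 shows the largest decrease (15.0%), and Eif1b and Eif2ak3 are the genes whose Fmr1-KO libraries all lie above the WT libraries.

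Several factors come as pairs of paralogs, and the ratio within a library does not depend on how libraries are scaled. Of 6 pairs compared, 2 had ratios that did not overlap between genotypes, and with 3 libraries against 3 the exact permutation test cannot go below P = 0.1. Eif1b over Eif1 was 0.915, 0.89 and 0.901 in WT and 1.0, 1.05 and 1.02 in Fmr1-KO. The difference was 0.18 on the log2 scale (exact permutation P = 0.1, adjusted P = 0.24 over the 6 pairs), which moved Eif1b from 47.4% to 50.6% of the pair. Eif4g3 over Eif4g1 was 0.486, 0.491 and 0.502 in WT and 0.445, 0.465 and 0.46 in Fmr1-KO, a difference of -0.11 (exact permutation P = 0.1, adjusted P = 0.24). Eif4g3 thus made up 33.0% of the pair in WT and 31.4% in Fmr1-KO. These ratios are of counts, not of levels per length, and the shared stretches of Eif1 and Eif4a1 make their ratios less certain.

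The other pairs overlapped between genotypes. The differences were 0.07 for Eif1ax over Eif1a, 0.15 for Eif5a2 over Eif5a and 0.11 for Eif4e3 over Eif4e2 (each with an exact permutation P = 0.2, adjusted P = 0.24). For Eif4a2 over Eif4a1 the difference was 0.03 (exact permutation P = 0.7, adjusted P = 0.7), with Eif4a2 at 35.1% of the pair in WT and 35.5% in Fmr1-KO.

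**Figure D5:**
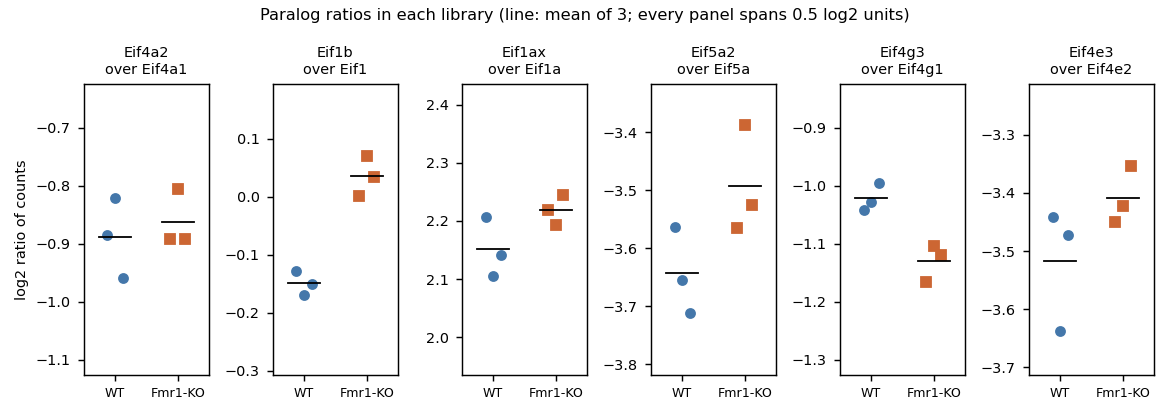
Log2 ratio of counts of 6 pairs of paralogs in each WT (circles) and Fmr1-KO (squares) library, with lines for the mean of 3 libraries and the same span of 0.5 log2 units in each panel. The genotypes separate for Eif1b over Eif1 (0.18 higher in Fmr1-KO) and Eif4g3 over Eif4g1 (a difference of -0.11), and overlap in the other 4 pairs.

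Of the 6 genes left out by name, Eif4ebp1, a repressor that binds eIF4E, had a log2 fold-change of 0.41 (edgeR adjusted P = 5.01e-05) and Eif4ebp2, its main relative in the brain, one of 0.10 (adjusted P = 0.016). Eif2s3x was at 0.18 and Eif2s3y at -0.47, both called, while the cap-binding protein gene Eif4e (-0.07) and Eif4a3 (0.03), of the exon junction complex, were not called. Eif2s3x is X-linked and Eif2s3y Y-linked, and other sex-linked RNAs differed beside them, with Xist at 1.58, Ddx3y at -0.28 and Kdm5d at -0.15, all called, and Uty at -0.20, not called. The sex of the pups was not given, so genotype and the share of each sex cannot be told apart for this pair or the other sex-linked RNAs.

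The remaining genes of the translation pathway were taken from lists based on general knowledge. Of all tested genes, 21.9% were called lower and 20.7% higher, the shares to set beside those of these short lists. Of 10 elongation genes, 4 were lower (40.0%) and 2 higher (20.0%), with a median of -0.06. The largest, and the only one on these lists beyond the -0.23 of Eif4g3, was Eef1a2, the form of the elongation factor eEF1A found in mature neurons and muscle, at -0.79 (SE 0.05, edgeR adjusted P = 5.2e-11). It had 2052, 2095 and 2037 counts in WT and 1215, 987 and 1271 in Fmr1-KO, while the ubiquitous Eef1a1 was at -0.0034. Eefsec, for selenocysteine incorporation, was at 0.20, Eef1e1 at -0.19 and Eef1g at -0.10. Of 7 termination and recycling genes, 4 were lower (57.1%) and 1 higher (14.3%), with a median of -0.11. These were led by Gspt2 (-0.22) and by Mrrf, a mitochondrial recycling factor, at 0.18. Etf1 and Gspt1, which encode the release factors, were at -0.12 and -0.11. Of 21 other initiation cofactors, 3 were lower (14.3%) and 2 higher (9.52%), with a median of -0.03. These included the helicase gene Ddx3x (0.19), the poly(A)-binding protein repressor gene Paip2 (0.18), Larp1 (-0.09) and Larp4b (-0.08). Ddx3x is X-linked, as is Gspt2, which was lower, and the Y-linked Ddx3y was at -0.28. The sex of the pups was not given, so genotype and the share of each sex cannot be told apart for these genes. Neither of the 2 mitochondrial initiation genes was called by edgeR, with 0 under an unadjusted P of 0.05 and 0 called by DESeq2.

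The study asked how nonsense-mediated mRNA decay (NMD), which destroys particular mRNAs as they are translated, is affected by the loss of FMRP. On the study's list of 1027 NMD targets, taken for its names alone, stood 0 of the 47 members and 0 of the 6 genes left out by name. That list was drawn up in N2A neuroblastoma cells. By the study's own account, it would miss targets that the cortical cultures express and N2A cells do not. The share of all tested genes on the list was not taken, so these counts have no background beside them. The 47 members lay on 16 chromosomes.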

How the data were processed

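Counts per gene, in 6 libraries (3 WT, 3 Fmr1-KO), were deposited by the authors without normalization. Per the labels and the study's methods, 100-base single-end reads of stranded libraries were trimmed with FastP, aligned to GRCm38.p6 with STAR 2.7.6a and counted in reverse-stranded mode with featureCounts (Subread 2.0.1, both versions from the submitters' processing notes). Reads shared by near copies are not resolved by this, and isoforms are summed.

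All 16976 genes that passed filterByExpr were fitted with edgeR 4.0.16 (R 4.3.3; TMM, glmQLFit and glmQLFTest, 2-sided, genotype only, Benjamini-Hochberg adjustment), with a threshold of 0.05 on the adjusted P. The study used DESeq2, and version 1.42.0 was an alternative. SE was the log2 fold-change divided by the square root of F. CPM were TMM-scaled. Exon lengths, gene positions and start codons came from GENCODE M21 and promoters from RefSeq (GRCm38.p6), which held 38 of the 47 members. Shared windows were 100-base stretches of transcript that occur in another gene. Ratios of paralogs were compared by exact permutation (scipy 1.17.1).

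The members, their complexes and all gene lists were chosen with earlier results of these data known. Full values are given for the 6 called members with the largest difference in each direction, both members of each pair and any called against its complex; outside the members, for Fmr1, the 6 genes left out and at most 4 called genes a list. Eef1a1 was named after its value was seen.

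In simulated counts for 16801 genes, edgeR found 91.8% of 200 altered genes (1 log2 unit) in the correct direction and called 0.0482% of the rest. Recovery of differences as small as those of the called members, of which the largest was -0.23 for Eif4g3, was not tested. Replicates differed by more than counting noise (chi-square per degree of freedom 2.92 in WT, 3.17 in Fmr1-KO). The labels name no batch.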

Additional observations from a re-analysis of the deposited data

How the results depend on the processing

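Of 14 called members, 11 were called under all 13 alternatives that kept the call rule (DESeq2, other scalings, other filters, a replicate block, leaving out each library). Eif2ak2 was also called under 2, and Eif2ak4, Eif4a1 and Eif5 under 1 each. Eif4h was called under 10, Eif3l under 9 and Eif4e2 under 6. A minimum fold of 1.2 gave 0 higher and 0 lower. Library totals alone gave 4 higher and 9 lower, with 43.7% of all tested genes called, and moved the median of the members to -0.0152 and that of eIF3 to -0.0243. Upper-quartile scaling moved the members' median to -0.0324. Leaving out 1 library gave 2 to 3 higher and 9 to 12 lower, with 36.5% to 39.9% of all tested genes called. The members' median was then -0.051 to -0.0384, the eIF3 median -0.0718 to -0.0475 and the eIF2B median -0.0876 to -0.0449. The eIF3 median moved by more than the spread between libraries without Fmr1-KO replicate 1 (-0.0718). The causes were not tested.

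The direction changed for uncalled genes alone. With library totals alone, Eif1 was at 0.0086, Eif2b2 at 0.0093, Eif3a at 0.0251, Eif3k at 0.0243, Eif4b at 0.0022 and Eif5a2 at 0.0180. With upper-quartile scaling, Eif3a was at 0.0081, Eif3k at 0.0070 and Eif5a2 at 0.0008. Leaving out 1 library gave -0.0372 to 0.0082 for Eif1, -0.0074 to 0.0333 for Eif2a, -0.0503 to 0.0411 for Eif3a, -0.035 to 0.0234 for Eif3k, -0.0512 to 0.0016 for Eif3m, -0.0485 to 0.0005 for Eif4b, -0.0299 to 0.0333 for Eif4e3, -0.0395 to 0.0406 for Eif5a2 and -0.0099 to 0.0594 for the ratio of Eif4a2 to Eif4a1. Same-numbered libraries did not deviate together (correlations -0.0289, 0.0323 and -0.0147), so the numbers were not read as pairs. With the replicate block 2 members were higher and 12 lower, and no call of a member changed. Depth limited Eif4ebp3, at 12 to 17 counts.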
